A study of Mus musculus with 24 samples.

Results

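The genes *Mfn1*, *Mfn2*, *Opa1*, *Dnm1l*, *Fis1*, *Mff*, *Oma1*, *Yme1l1*, *Phb* and *Phb2*, which govern mitochondrial fusion and fission, were examined in mouse *M. gastrocnemius* after 6 h of reduced oxygen. Members were all non-control probes of the array whose gene name was 1 of these 10, which gave 19 probes. Of these, 15 probes of 8 genes were bright enough to be tested among 9187 genes, and *Oma1* and *Yme1l1* were not. Mitochondria in skeletal muscle form a network whose shape is set by opposing membrane events. The mitofusins *Mfn1* and *Mfn2* join outer membranes and *Opa1* joins inner membranes, whereas the dynamin-related GTPase encoded by *Dnm1l* is drawn to the organelle by receptors such as *Mff* and *Fis1* and divides it. The inner membrane proteases *Oma1* and *Yme1l1* cleave OPA1 and so tune fusion, and the prohibitins *Phb* and *Phb2* build a ring-shaped scaffold in the inner membrane that holds such proteases and keeps OPA1 and the cristae in place.

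The samples came from male C57BL/6JOlaHsd mice that arrived at 10 weeks of age, spent 3 weeks on a purified low-fat diet with 10% of energy from fat and then 6 weeks on a high-fat diet with 40%. All mice were fasted, after which 12 (Norm) stayed at 20.9% oxygen and 12 (Hypox) were kept at 12% oxygen for 6 h. RNA of each whole muscle, labelled with Cy5, was hybridised on a 2-colour Agilent mouse array against a Cy3-labelled pool of all samples, so that each value is a log2 ratio of 1 muscle to that pool. A single strain, sex and diet was used, and no group on normal chow was compared. In RNA of whole muscle, fewer cells of a type and less RNA per cell cannot be told apart. Slide and group were balanced, as every slide of the 6 carried 2 arrays of each group.

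The arrays differed in brightness. Their mean Cy5 signal ran from 58.3 to 1014.5, with slide 1 the dimmest, and 9.42% to 37.8% of the spots were well above background. All 9 defining markers of skeletal muscle were well above background on at least 12 arrays, and their summed share of the Cy5 signal was 19477 to 34043 per 1000000 in Norm and 22887 to 31785 in Hypox. Markers of adipose tissue summed to 30.8 to 258 per 1000000 in Norm and 24.6 to 83.5 in Hypox, those of peripheral nerve to 23.5 to 60.4 and 12.3 to 46.9, those of endothelium to 54.2 to 88.3 and 45.8 to 95.3, those of immune cells to 11.2 to 35.1 and 14.2 to 29.7, those of red blood cells to 52.5 to 163 and 85.5 to 153, and those of lung to 0.854 to 14.0 and 1.12 to 53.8. Of these lists the leptin gene *Lep*, the leukocyte gene *Ptprc* and the lung genes *Scgb1a1* and *Scgb3a2* were not well above background on any array. Several markers of other cell types moved with the group, and most muscle markers were lower in Hypox. In the fit over all genes, 7 of 9 muscle markers were lower and 2 higher (median log2 fold change -0.22). Their count with an unadjusted P-value under 0.05 was 0. All 3 tested red blood cell markers were higher (median 0.15), and 0 had an unadjusted P-value under 0.05. Of the other lists, 5 of 5 tested nerve markers and 4 of 4 tested adipose markers were lower in Hypox. The nerve gene *Mbp* was level, at a log2 fold change of -0.00079. An unadjusted P-value under 0.05 was reached by 3 nerve markers and by 2 adipose markers (*Cfd* and *Adipoq*). Of all genes, 4.97% were lower at that threshold. Of 4 tested endothelial markers 2 were lower, and the other two, *Esam* (log2 fold change 0.28, limma P-value 0.0014) and *Cdh5* (0.38, limma P-value 0.0056) were higher, as was the lung gene *Sftpc* (0.81, limma P-value 0.016), and no marker passed after adjustment. The part of other cell types in the members' changes below was not tested.

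The probe of *Phb2* at base 534 had the smallest P-value of all members' probes, and it is shown here with the other *Phb2* probe as the array holds them, 5′ to 3′ on the sense strand, with no base in capitals because no part of them is singled out. One probe begins 534 bases into the transcript (base 534) and lies on the plus strand at chr6:124664096-124664155 (mm9). The other, base 918, lies at chr6:124665659-124666012, so that its 60 bases are spread over 354 bases of the genome and cross at least 1 intron.
Phb2 base 534: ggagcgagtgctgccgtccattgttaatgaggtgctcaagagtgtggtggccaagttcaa
Phb2 base 918: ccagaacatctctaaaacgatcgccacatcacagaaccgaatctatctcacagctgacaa

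With the brightest probe standing for each gene, none of the 8 members was significantly regulated by hypoxia, neither after Benjamini-Hochberg adjustment over all genes in limma (lowest adjusted P-value 0.417) nor at an unadjusted P-value under 0.05, and the methods' t-test called 0 as well. Over all 9187 genes, 12.0% passed the unadjusted threshold (7.08% higher and 4.97% lower in Hypox) and 0.348% passed after adjustment. Of the members, 6 were higher in Hypox and 2 lower, and their median log2 fold change was 0.074, beside a median of 0.029 and 58.6% higher over all genes. No gene of the 9187 separated the groups without overlap. *Phb2* had the largest change of the members and the smallest P-value, and it ranked 1135th by P-value among all genes.

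**Figure D1:**
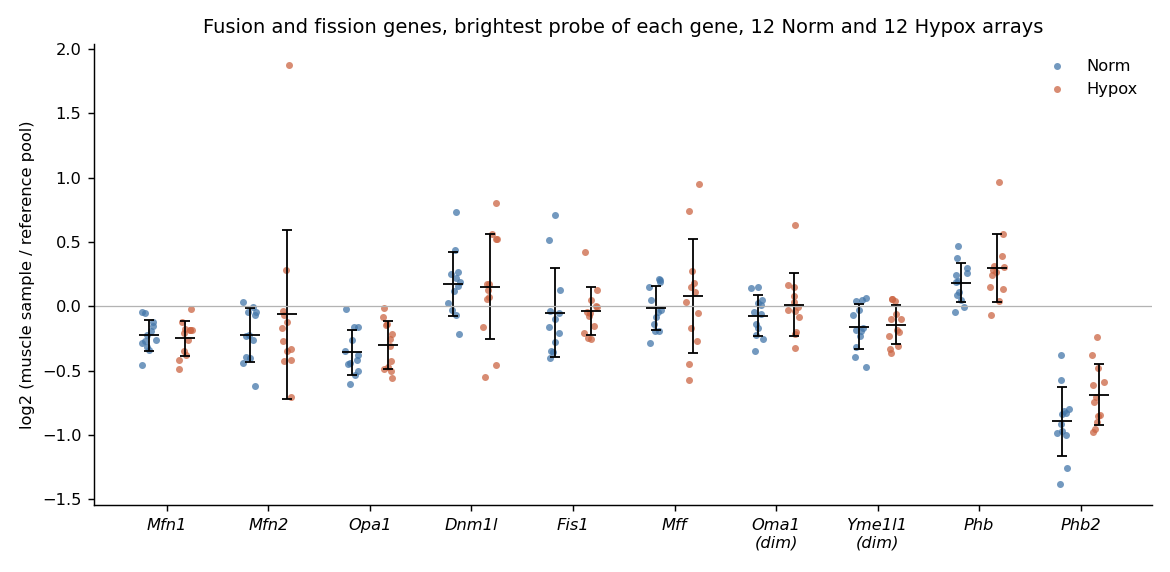
Log2 ratio of muscle sample to reference pool (vertical axis) for the brightest probe of each of the 10 genes, with 1 point per array (12 Norm, 12 Hypox) and the mean ± SD as bars. The groups overlap for every gene, and the highest points of *Mfn2* (1.88) and *Phb* (0.96) come from single Hypox arrays.

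For outer membrane fusion, *Mfn1* was represented by 2 probes about equally bright. At base 2598 (chr3:32476215-32476274, mm9) the log2 ratios ran from -0.46 through a median of -0.24 to -0.045 in Norm, and from -0.49 through -0.20 to -0.019 in Hypox. The groups covered the same range, and the log2 fold change was -0.021 ± 0.062 (SE, n = 12 per group, limma P-value 0.733). At base 2803 (chr3:32476420-32476479), the Norm arrays lay between -0.38 and 0.43 with a median of -0.055 and the Hypox arrays between -0.73 and 1.56 with a median of 0.11. Both extremes here were Hypox arrays, the highest being Hypox 2 and the lowest Hypox 12, and the log2 fold change was 0.17 ± 0.15 (limma P-value 0.282).

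*Mfn2*, which also tethers mitochondria to the sarcoplasmic reticulum, had 4 probes, all on the minus strand of chromosome 4. Its brightest probe at base 4128 (chr4:147247704-147247757) gave -0.62 to 0.037 with a median of -0.22 in Norm and -0.71 to 1.88 with a median of -0.22 in Hypox. The medians were level and the value of 1.88 came from Hypox 4 alone. The log2 fold change of 0.16 ± 0.18 (limma P-value 0.387) became -0.014 when that array was left out. On the same array the other *Mfn2* probes past the filter stood at 0.60 (base 4002, Norm median 0.0026) and -0.44 (base 3890, Norm median -0.48). Against its own Norm median, base 3890 was thus near level there. Base 4002 was higher than its Norm median, by less than base 4128.

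At base 4002 (chr4:147248019-147248078) the *Mfn2* ratios ran from -0.31 through 0.0026 to 0.47 in Norm and from -0.28 through 0.23 to 1.38 in Hypox. The highest value was again Hypox 2, and 10 of 12 Hypox arrays lay above the Norm median. This probe passed the unadjusted threshold, with a log2 fold change of 0.28 ± 0.14, 95% CI 0.0029 to 0.56 and a limma P-value of 0.048 (adjusted 0.354), as did 13.8% of the 14421 probes past the filter (7.40% higher and 6.44% lower). Hypox was higher on 5 of 6 slides, and without Hypox 2 the change was 0.19. Probe base 3890 (chr4:147248131-147248190), which lies next to it, ran from -1.27 through -0.48 to -0.30 in Norm and from -0.87 through -0.61 to -0.15 in Hypox, and changed by -0.023 ± 0.099 (limma P-value 0.819). The probe at base 2306 was at 1.19 times background, not well above it on any array, and was not tested.

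*Opa1*, the GTPase of inner membrane fusion, had a brightest probe at base 5760 (chr16:29654447-29654506). Its log2 ratios lay between -0.61 and -0.023 with a median of -0.40 in Norm and between -0.56 and -0.011 with a median of -0.28 in Hypox. The ranges nearly coincided, and the log2 fold change was 0.058 ± 0.078 (limma P-value 0.463), with 4 of 6 slides higher in Hypox. The dimmer probe at base 3188 (chr16:29651875-29651934) changed by 0.076 ± 0.098 (limma P-value 0.442), and Hypox was higher there on 2 of 6 slides. These probes report the amount of transcript, and neither bears on how OPA1 protein is cleaved.

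In the fission machinery, *Dnm1l* had 1 probe (chr16:16312331-16312390, minus strand). Norm arrays lay between -0.22 and 0.73 with a median of 0.17, and Hypox arrays between -0.55 and 0.80 with a median of 0.15. The Hypox arrays were the more widely spread (SD 0.41 against 0.25), with Hypox 12 and Hypox 2 lowest and Hypox 9 highest. The log2 fold change was -0.019 ± 0.13 (limma P-value 0.884), and the 95% CI from -0.29 to 0.25 bounds a change in either direction.

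*Fis1*, a small outer membrane anchor, was the brightest member at 146 times the background at base 868 (chr5:137442023-137442082). Its ratios ran from -0.40 through -0.13 to 0.71 in Norm and from -0.26 through -0.050 to 0.42 in Hypox. The high end was held by Norm 11, Norm 4 and Hypox 4, which are all arrays of the dim slide 1. The log2 fold change was 0.011 ± 0.11 (limma P-value 0.918). A second *Fis1* probe at base 210 was at 1.31 times background and was not tested.

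*Mff*, the tail-anchored receptor that recruits the fission GTPase, had 2 probes on chromosome 1 that target nearly the same stretch (82748715-82748774 and 82748724-82748783). They share 51 positions, of which 48 are identical, so they are not independent. For the brighter probe (base 1615) the ratios ran from -0.29 through -0.036 to 0.21 in Norm and from -0.58 through 0.074 to 0.95 in Hypox. The Norm arrays sat inside the Hypox range, with Hypox 12 and Hypox 2 at the top and Hypox 1 at the bottom. The log2 fold change was 0.090 ± 0.13 (limma P-value 0.496) and fell to 0.011 without Hypox 12. The other probe changed by 0.087 ± 0.14 (limma P-value 0.545).

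The 2 proteases that cleave OPA1 were close to background. *Oma1*, the stress-activated protease, averaged 1.80 times background (chr4:102994426-102997635) and was well above background on 3 Norm and 5 Hypox arrays. *Yme1l1*, the ATP-dependent protease, averaged 1.89 times background (chr2:23053737-23053796) and was well above it on 5 Norm and 6 Hypox arrays. With the filter on dim probes lifted, the log2 fold changes were 0.086 (limma P-value 0.292) for *Oma1* and 0.015 (limma P-value 0.823) for *Yme1l1*. Ratios this near background are compressed by the offset of the background correction, so these values may understate a change of either gene.

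Of the prohibitins, *Phb* was measured at base 994 (brightest, chr11:95541283-95541342) and base 1580 (chr11:95541869-95541928). At base 994 the Norm arrays ran from -0.045 through 0.19 to 0.47 and the Hypox arrays from -0.071 through 0.28 to 0.96. The groups overlapped, Hypox 5 stood highest, and the log2 fold change was 0.12 ± 0.090 (limma P-value 0.207). At base 1580 the Norm arrays ran from -0.45 through 0.17 to 0.51 and the Hypox arrays from -0.65 through 0.44 to 1.96. Here 9 of 12 Hypox arrays lay above the Norm median, Hypox 2 was highest and Hypox 12 lowest. The change of 0.36 ± 0.18 (limma P-value 0.052) was higher on 5 of 6 slides but was 0.22 without Hypox 2.

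*Phb2*, the partner of *Phb* in the ring and also a receptor for the removal of damaged mitochondria, was higher in Hypox at both probes. At base 918, which is the brighter, the Norm arrays ran from -1.38 through -0.88 to -0.38 and the Hypox arrays from -0.98 through -0.72 to -0.24. The 4 lowest arrays were all Norm, and 9 of 12 Hypox arrays lay above the Norm median. The log2 fold change was 0.21 ± 0.10 with a 95% CI from -0.0015 to 0.41 (limma P-value 0.0515, adjusted 0.417). Hypox was higher on 4 of 6 slides, by 0.35 to 0.39, and differed by -0.017 on slide 1 and -0.22 on slide 6. An exact permutation of the labels within slides gave a two-sided P-value of 0.0375 over 46656 permutations, and limma with slide as a block gave 0.033.

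At base 534, the dimmer probe at 5.60 times background, *Phb2* ran from -0.76 through -0.32 to -0.040 in Norm and from -0.24 through -0.093 to 0.61 in Hypox. All 12 Hypox arrays lay above the Norm median, and 8 Norm arrays lay below every Hypox array. The log2 fold change was 0.35 ± 0.095 with a 95% CI from 0.16 to 0.55 and a limma P-value of 0.000954, and it missed the threshold after adjustment over the 14421 probes (0.071), which 0.943% of them passed. Hypox was higher on 6 of 6 slides, by 0.25 to 0.62, and the change stayed between 0.29 and 0.38 whichever array was left out. The difference between the changes at the 2 *Phb2* probes was 0.15, which did not pass the test against the spread between arrays (permutation test, two-sided P-value 0.302, adjusted 0.644 over 8 pairs of probes). Across the 24 arrays the 2 *Phb2* probes had a Pearson's r of 0.26 (permutation P-value 0.212) and a Spearman's rho of 0.15 (permutation P-value 0.489). Their r was -0.10 without the 2 arrays farthest from the median, so the probes did not clearly follow each other. With the mean of a gene's probes in place of the brightest, *Phb2* changed by 0.28 (limma P-value 0.000826, adjusted 0.094) and *Phb* by 0.24 (limma P-value 0.019). The lowest adjusted P-value of *Phb* over all settings was 0.27.

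**Figure D2:**
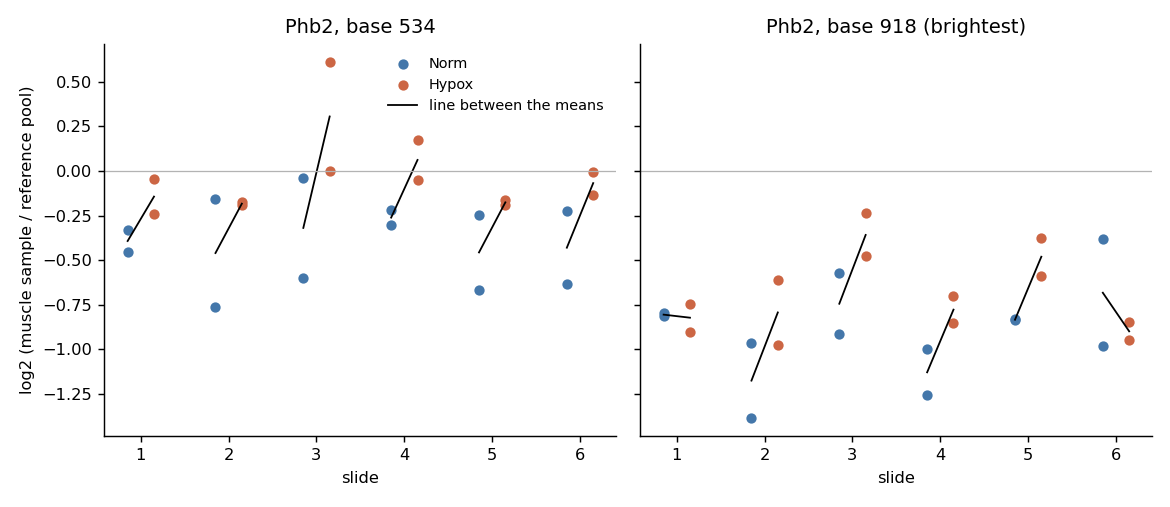
Log2 ratio to the reference pool (vertical axis) of the *Phb2* probes by slide (horizontal axis), with 2 Norm and 2 Hypox arrays per slide and a line between their means. At base 534 the line rises on 6 of 6 slides, and at base 918 on 4 of 6.

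Over all 15 probes past the filter, 12 were higher and 3 lower in Hypox, beside 58.6% of all genes higher. The unadjusted threshold was passed by 2, namely *Phb2* base 534 and *Mfn2* base 4002, beside 13.8% of all 14421 probes. None passed after adjustment, beside 0.943% of all probes. In 8 comparisons between probes of the same gene no difference in change passed after adjustment. The smallest P-value among them was for *Mfn2* base 3890 against base 4002, whose changes differed by -0.31 (permutation test, two-sided P-value 0.0492, adjusted 0.394).

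Single Hypox arrays set the extremes at several probes, and the position of the spots on the array moved with them. The array has 384 rows and 164 columns of spots. *Phb* base 1580, *Mfn2* base 4002, *Mfn1* base 2803 and *Phb2* base 534 lie in columns 158, 139, 150 and 150. Their rows are 2, 4, 74 and 174. For each spot and array the median log2 ratio of the other probes past the filter within 10 rows and 10 columns was taken as the local level, an addition made after the data had been seen. On Hypox 2 the local level was 1.28 around *Phb* base 1580, 1.14 around *Mfn2* base 4002, 1.03 around *Mfn1* base 2803 and 0.98 around *Phb2* base 534. Spots of many other genes around these probes were thus high on that array as well. The SD of the local levels over the array was 0.46 on Hypox 2 and between 0.065 and 0.22 on the others. Around *Mff* base 1615 the local level was 0.69 on Hypox 12 and 0.55 on Hypox 2, and around *Phb* base 994 it was 0.55 on Hypox 5. By contrast the 1.88 of *Mfn2* base 4128 on Hypox 4 had a local level of -0.11. Around *Dnm1l* the local level on Hypox 12 was -0.30. With the local level subtracted, the SD of *Dnm1l* was 0.25 in Hypox against 0.19 in Norm.

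**Figure D3:**
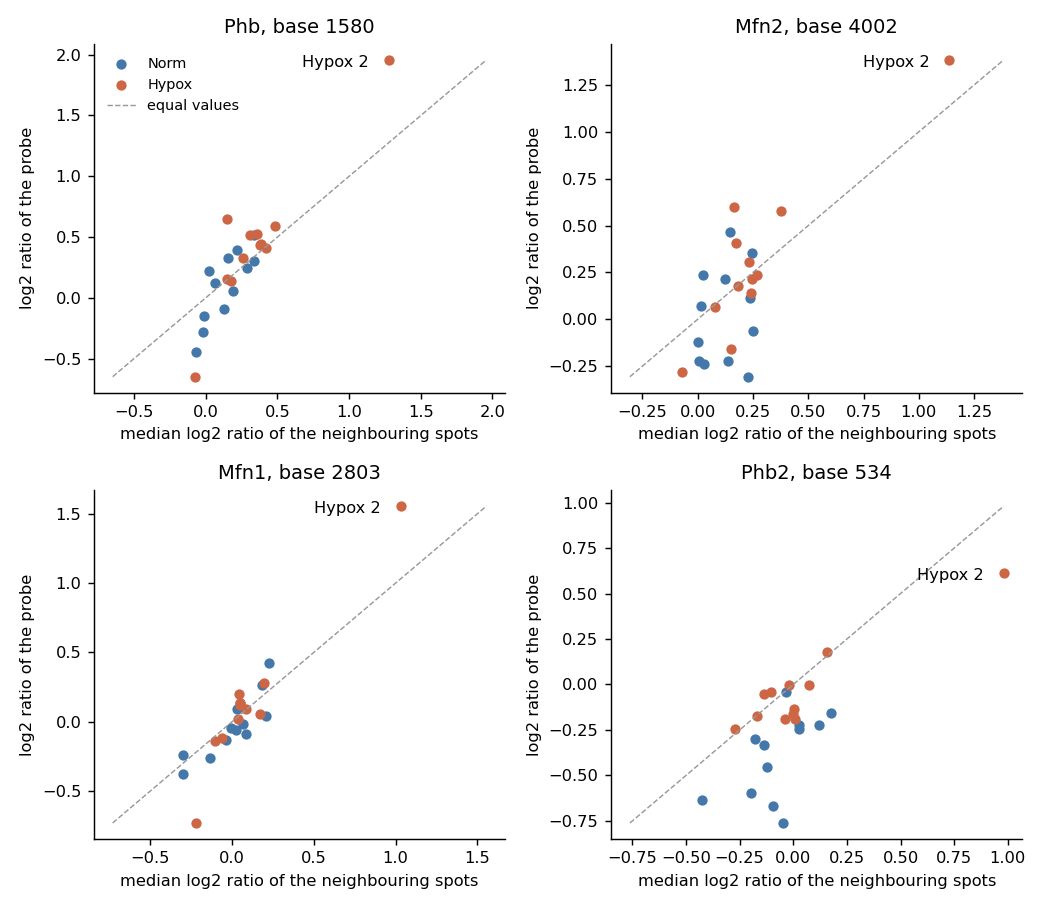
Log2 ratio of 4 probes in rows 2 to 174 and columns 139 to 158 (vertical axes) against the median log2 ratio of the neighbouring spots on the same array (horizontal axes). There are 12 Norm and 12 Hypox arrays, with a dashed line of equal values. Hypox 2 is at the far right in each panel, with local levels of 0.98 to 1.28, and for *Phb2* base 534 most Norm arrays lie lower than Hypox arrays of the same local level.

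Once the local level was subtracted, the changes of *Phb* base 1580 and *Mfn2* base 4002 were both 0.14 (limma P-value 0.181 and 0.147), *Mfn1* base 2803 changed by 0.063 (limma P-value 0.409), and neither *Mff* probe exceeded 0.067. All of these changes stayed positive, as did those of *Phb2* at both probes. At base 918 the change was 0.18 ± 0.085 with Hypox higher on 5 of 6 slides (limma P-value 0.047, adjusted 0.254). At base 534 it was 0.24 ± 0.068 with a 95% CI from 0.099 to 0.38 and Hypox higher on 6 of 6 slides (limma P-value 0.00169, adjusted 0.045), in a setting in which 4.11% of the probes passed after adjustment. There the Norm arrays ran from -0.72 through -0.30 to -0.0047 and the Hypox arrays from -0.37 through -0.041 to 0.084, and 11 of 12 Hypox arrays lay above the Norm median. With windows of 5 and 20 rows and columns the change at base 534 was 0.28 (adjusted P-value 0.026) and 0.25 (adjusted P-value 0.031). Of the 15 probes, 13 were then higher in Hypox, beside 51.6% of all genes. The unadjusted threshold was passed by 2 of the 15, both of *Phb2*, beside 2747 of all 14421 probes. With 1 probe per gene, *Phb2* was then the 1 of 8 members that passed, higher, beside 17.3% of all genes in either direction and 8.47% higher.

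**Figure D4:**
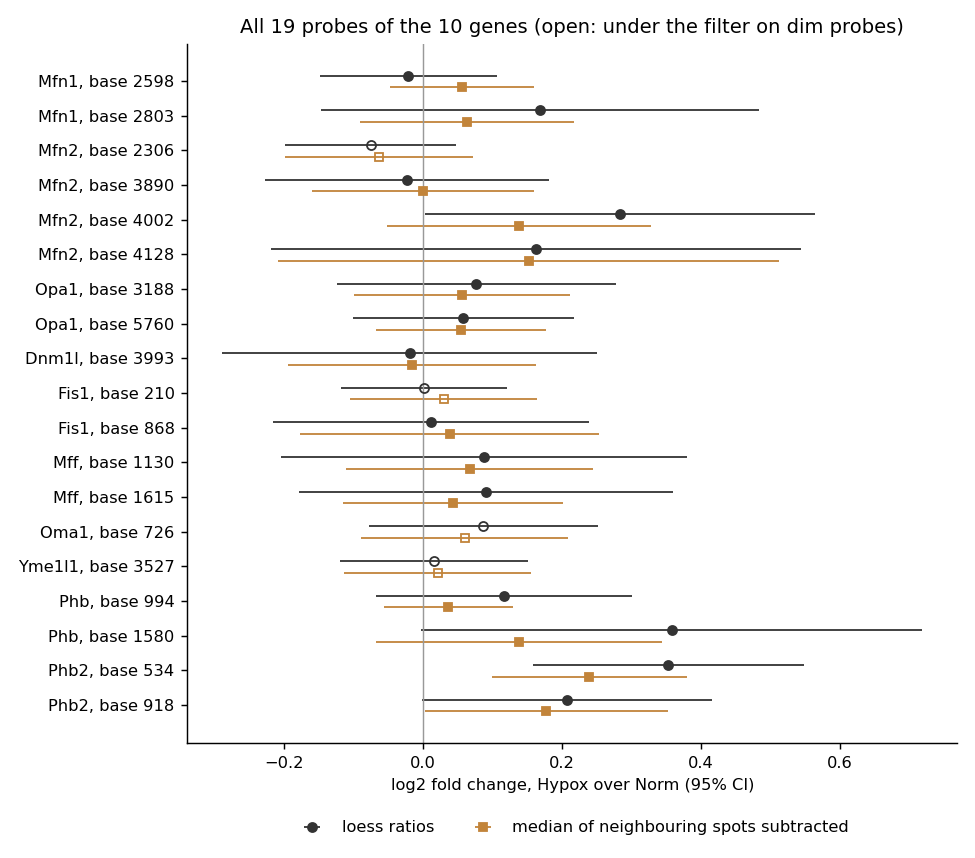
Log2 fold change of Hypox over Norm with its 95% CI (horizontal axis) for each of the 19 probes, named by gene and by the base of the transcript at which they start, before (circles) and after (squares) the local level was subtracted. Open symbols are the 4 probes under the filter, and the interval of *Phb2* base 534 lies above 0 in both settings.

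Pairs of members that act together were compared across the 24 arrays with the brightest probes. None of 6 planned pairs correlated after adjustment. By Spearman's rho the strongest was *Opa1* with *Mfn2* at 0.46 (permutation P-value 0.0245, adjusted 0.147), with a Pearson's r of 0.24. *Phb* and *Phb2* had a Pearson's r of -0.00077 (permutation P-value 0.997, adjusted 0.997) and a Spearman's rho of -0.0087 (permutation P-value 0.97, adjusted 0.995), with r at -0.14 without the 2 arrays farthest from the median, 0.31 with slide means removed, -0.26 within Norm, -0.040 within Hypox and -0.40 with the local level subtracted (permutation P-value 0.0524). The pair with the strongest r was *Dnm1l* and *Mff* at -0.31 (permutation P-value 0.136, adjusted 0.544), with a rho of -0.040 (permutation P-value 0.854, adjusted 0.995). Its r was -0.18 without the 2 farthest arrays and -0.51 with slide means removed (permutation P-value 0.0107, not adjusted). It was 0.57 within Norm and -0.52 within Hypox, so the groups had no common direction.

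The 3 pairs formed by *Phb* base 1580, *Mfn2* base 4002 and *Mfn1* base 2803 had an r of 0.79 to 0.91. These probes belong to different genes and had local levels of 1.03 to 1.28 on Hypox 2. The 8 pairs of probes of the same gene reached an r of at most 0.59 (*Mff*). That r was 0.17 without the 2 farthest arrays, and its rho was 0.15. By rho the highest same-gene pair was *Mfn2* base 4128 with base 3890 at 0.66 (permutation P-value 0.00069, adjusted 0.0055), with r at 0.39. *Phb* base 1580 and *Mfn2* base 4002 had an r of 0.91 and a rho of 0.87 (each permutation P-value 1e-05, the smallest that 100000 permutations can give), 0.89 without the 2 farthest arrays, 0.93 with slide means removed, 0.72 within Norm and 0.95 within Hypox. This pair was chosen after the data had been seen, and its adjusted P-value over all 17 pairs was 8.5e-05. The 2 probes of *Phb* had an r of -0.070 (permutation P-value 0.723, adjusted 0.723 over 8 pairs) and a rho of 0.18 (permutation P-value 0.411, adjusted 0.558), with r at 0.38 without the 2 farthest arrays. For the 2 probes of *Mfn1* r was 0.27 (permutation P-value 0.207) and rho 0.27 (permutation P-value 0.206), with r at 0.11 without the 2 farthest arrays, and r became 0.73 (permutation P-value 2e-05) once the local level was subtracted, while that of *Phb* base 1580 with *Mfn2* base 4002 became 0.73 (permutation P-value 8e-05).

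The wider machinery of mitochondrial shape was described with 4 lists of 51 genes, of which 47 were tested. Of these, 33 were higher in Hypox and 14 lower, with a median log2 fold change of 0.073. At the unadjusted threshold 4 of 47 were higher, beside 7.08% of all genes, and 0 were lower, beside 4.97%. After limma's Benjamini-Hochberg adjustment 0 passed, and the share past the unadjusted threshold was near that of all genes.

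Among the genes of the MICOS complex, which shapes cristae, and its partners, 8 of 10 were higher. *Samm50*, which bridges MICOS to the outer membrane, changed by 0.27 ± 0.10 (limma P-value 0.0149, adjusted 0.275). *Chchd6*, a MICOS subunit, changed by 0.19 ± 0.072 (limma P-value 0.0140, adjusted 0.273). Of 18 helpers of fusion and fission, 11 were higher, and *Mtfp1*, an inner membrane protein that promotes fission, changed by 0.26 ± 0.11 (limma P-value 0.0249, adjusted 0.324). Of 7 genes of mitochondrial movement, 5 were higher, and *Trak1*, an adaptor that links mitochondria to motor proteins, changed by 0.33 ± 0.13 (limma P-value 0.0155, adjusted 0.277). None of 12 inner membrane proteases and their partners passed, and the smallest P-value was that of *Clpp*, a matrix protease, at 0.17 ± 0.090 (limma P-value 0.0653). Once the local level was subtracted, *Samm50* (0.28), *Chchd6* (0.19) and *Trak1* (0.21) still passed the unadjusted threshold. *Mtfp1* (0.16, limma P-value 0.066) did not, and *Htra2*, a protease of the intermembrane space, did (0.19, limma P-value 0.014). In that setting 17.3% of all 9187 genes passed the unadjusted threshold. No list gene passed after adjustment there (lowest adjusted limma P-value 0.091, *Samm50*).

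**Figure D5:**
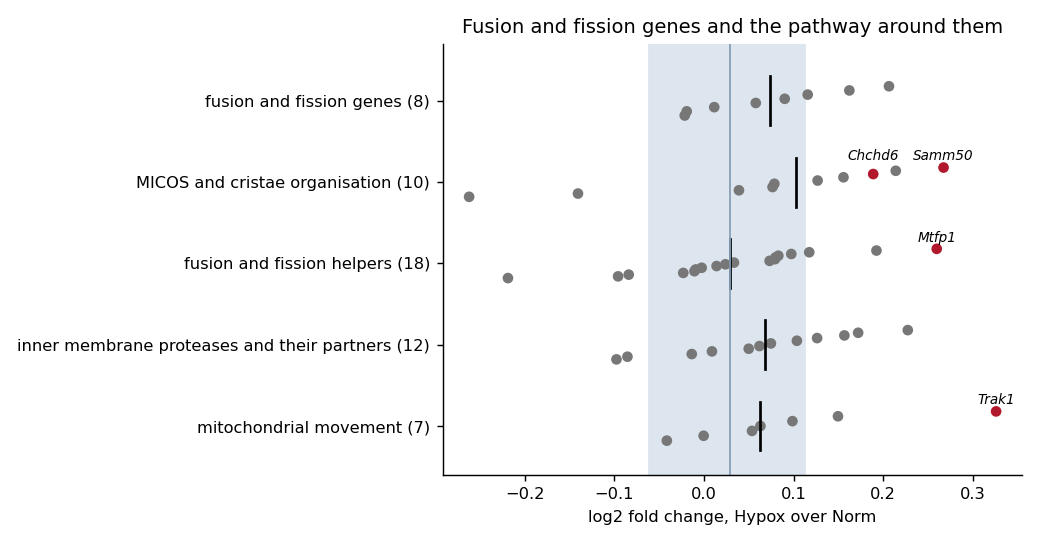
Log2 fold change of Hypox over Norm (horizontal axis) for the 8 tested fusion and fission genes and the 4 lists around them, with 1 point per gene, the median of each list as a black bar and named red points for genes with an unadjusted P-value under 0.05. The shaded band spans the quartiles of all 9187 genes (-0.062 to 0.11) around their median of 0.029, and the medians of the lists lie inside it.

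For *Phb2* base 918, the 5 genes with the most similar log2 ratios over the 24 arrays after slide means were removed were *Acbd6* (r = 0.81), *Ewsr1* (0.79), *AI837181* (0.79), *Hax1* (0.77) and *Plvap* (0.76). These are the highest of 9187 genes and are given as a description, since the arrays share slides and brightness. *Ewsr1* alone of the 5 had an unadjusted P-value under 0.05, with a log2 fold change of 0.19 (limma P-value 0.018).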

How the data were processed

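The authors deposited Agilent Feature Extraction 10.7.3.1 scanner files with the intensity of both dyes, and a table of normalized log2 values. That table followed the Cy5 channel, had a median of 6.58 on every array, and its scaling is otherwise not given in the sources used here. Some Hypox labels name other dyes, and dyes were taken from the sample descriptions. Mean intensities were background-corrected (normexp, offset 50), and loess-normalized within arrays in limma 3.58.1 (R 4.3.3). Control and flagged spots were left out. Probes with a mean Cy5 signal over 2 times background and at most 4 missing arrays were kept, and the brightest stood for a gene. Hypox was compared with Norm by limma with Benjamini-Hochberg adjustment, tested on simulated data (99.5% of 200 genes changed by 1 recovered among 9187, with 10 false calls). The simulated noise was independent between genes, and the members' changes in the main setting were all smaller than 1. The simulation thus cannot say how often changes of their size would be found. P-values under 0.05 were called. The number of arrays limits precision. Members and gene lists were chosen with earlier results of these data known. Named genes were all members, list genes past the unadjusted threshold (otherwise the smallest P-value of the list), and the 5 genes most like the member with the smallest P-value. Correlations and differences between probes were tested by 100000 permutations in Python 3.11.15 with numpy 2.4.6. Positions are the array design's (mm9), and exons and UTRs were not assigned. Alternatives were other signals, centring, filters, probe summaries, blocks, weights, the methods' t-test and leaving out each array.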

Additional observations from a re-analysis of the deposited data

How the results depend on the processing

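The limits are the dim slides, the regional trends within arrays and the small size of the changes, most of which lie near their own standard error. No setting called a member after adjustment with 1 value per gene. The main counts were 0 members, 4 list genes, 1107 genes unadjusted and 32 adjusted. *Phb2* base 918 was positive in every setting and passed the unadjusted threshold with processed signals (0.27), Cy5 alone (0.21), no filter, slide as a block and the exact permutation within slides (each 0.21), array weights (0.23) and the local level subtracted (0.18), which made 1 member past it. With the mean of a gene's probes, which joins base 918 with base 534, *Phb2* (0.28) and *Phb* (0.24) made 2. Base 918 did not pass with median centring, the deposited values, the methods' t-test, the stricter filter on dim probes, the replicate block or the 2 added settings that left out the dimmest slides or Hypox 2 and Hypox 12. Signs of the small changes turned, in each case with the cause not tested. *Mfn1* became 0.35 with median centring, 0.21 with the deposited values under limma and the t-test, 0.073 with the mean of probes, 0.016 with array weights and 0.056 with the local level subtracted. *Dnm1l* became 0.25, 0.079 and 0.10 with median centring, the deposited values (both tests) and array weights, and 0.11 without Hypox 2 and Hypox 12. *Mff* became -0.0021 with Cy5 alone, -0.035 with array weights and -0.064 without those 2 arrays. Median centring moved the median of all genes from 0.029 to 0.25, so that *Dnm1l* lay at that shift and *Mfn1* above it by less than its standard error (0.45). Genes passing after adjustment numbered 66 with processed signals, 0 with median centring (32 unadjusted, all higher, and 0 list genes), 12 with Cy5 alone (729 unadjusted), 1 with the deposited values (490 unadjusted, 1 list gene), 9 with the methods' t-test, 1 with that test on the deposited values (518 unadjusted, 2 list genes), 8 with no filter (1939 unadjusted), 62 with slide as a block, 265 with array weights (1715 unadjusted, 8 list genes), 1 without the dimmest slides and 214 with the local level subtracted, a set that held all 32 of the main setting. Leaving out 1 array at a time gave -0.043 to 0.00054 for *Mfn1*, -0.014 to 0.22 for *Mfn2*, 0.032 to 0.088 for *Opa1*, -0.078 to 0.044 for *Dnm1l*, -0.030 to 0.081 for *Fis1*, 0.011 to 0.15 for *Mff*, 0.055 to 0.15 for *Phb* and 0.16 to 0.25 for *Phb2*, with 0 to 1 members, 3 to 7 list genes and 966 to 1282 genes unadjusted and 4 (without Hypox 7) to 51 (without Norm 12) adjusted. *Phb2* passed in 7 of these 24 fits. The *Mfn2* base 4002 probe ran from 0.14 to 0.59 and *Phb* base 1580 from 0.14 to 0.74 over the settings, and both were positive throughout. *Phb2* base 534 ran from 0.24 (local level subtracted) to 0.54, with an unadjusted P-value over the threshold under median centring alone (0.51, P-value 0.066). Replicate numbers did not pair the arrays, since 3 of 12 same-numbered pairs had a correlation of residuals over 0.1 (range -0.18 to 0.43) and 3 of 24 arrays correlated best with their own number. The replicate block gave 11 adjusted genes and 8 list genes and called no member. Of the correlations, *Phb* with *Phb2* became 0.31 with slide means removed and -0.40 with the local level subtracted (permutation P-value 0.0524). *Dnm1l* with *Mff* became -0.51 with slide means removed (permutation P-value 0.0107), 0.57 within Norm and 0.14 with the local level subtracted. *Dnm1l* with *Fis1* became 0.41 with slide means removed (permutation P-value 0.0433) and -0.47 with the local level subtracted (permutation P-value 0.0226). It was -0.53 within Norm and 0.48 within Hypox.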
